A study of Mus musculus with 14 samples.

Results

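The 9 genes that encode the receptors of bone morphogenetic proteins (BMPs) and activins were taken by name from 21757 mouse protein-coding genes: *Bmpr1a*, *Bmpr1b*, *Acvr1*, *Acvrl1*, *Acvr1b*, *Bmpr2*, *Acvr2a*, *Acvr2b* and *Eng*. Every CUT&Tag peak that touched the canonical GENCODE transcript of a member, or the 20 kb on either side of it, was assigned to that member, in GRCm39 coordinates. CUT&Tag places a transposase at an antibody on chromatin, so a peak marks a stretch where the antibody was enriched. In all 6 peak lists, the receptor genes held 10 of 7339 pSMAD1/5/9 peaks and 18 of 12860 SMAD4 peaks after BMP6. The control lists gave 0 of 949 and 12 of 8577, and for H3K27ac the genes held 86 of 78050 peaks after BMP6 and 80 of 67790 in control cells.

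The cells were muscle stem cells (MuSCs) from female C57BL/6N(Tg(Pax7-EGFP)Tajb) mice, 9 weeks old, whose Pax7 reporter was used to sort GFP-positive cells after a first day of culture. All groups were cultured further and starved for 6 h in serum-free medium with 200 ng/mL soluble BMPR1A-Fc, the ligand-binding part of 1 of these receptors, which takes up BMPs from the medium. BMP6 at 100 ng/mL or its vehicle (4 mM HCl with 0.1% BSA, named control here) was then given for 1 h, and 100000 cells per library were fixed for 2 min in formaldehyde at 0.1% for CUT&Tag. Of the 14 libraries, 12 gave the lists, as 2 biological replicates per antibody and condition, and 2 made with no primary antibody were left out. As a model these are sorted and cultured cells, so freshly isolated MuSCs were not measured.

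BMPs and activins signal through complexes of type I and type II serine/threonine kinase receptors, in which the type II receptor activates the type I receptor. BMP type I receptors phosphorylate SMAD1, SMAD5 and SMAD9, and the activin type I receptor ACVR1B phosphorylates SMAD2 and SMAD3, while SMAD4 is the shared partner of both branches. In MuSCs this pathway is known to hold back myogenic differentiation, and the receptors decide which ligand a cell can answer. H3K27ac is an acetylation of histone H3 found at active promoters and enhancers. The question put to the data here was whether the SMADs were located at the genes of their own receptors, and where.

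The sequences under the main peaks are shown first, read from the GRCm39 genome on the strand of the receptor gene. Capitals mark the motifs searched, on both strands: GGCGCC and GGAGCC (GC-rich elements of SMAD1/5), GTCTAGAC (the SMAD palindrome), CAGAC (the SMAD box), CAGCTG (an E-box of the kind MYOD1 binds) and TGACTCA (the AP-1 site, whose reverse complement is TGAGTCA). Each stretch is centred on the summit of the peak, with 2 exceptions. The first of *Bmpr2* runs up to its TSS and ends before the summit, and that of *Bmpr1b* stops at the border of exon 8. They are shown because they carry the pSMAD1/5/9 peaks of *Bmpr2*, *Acvr1*, *Acvrl1* and *Eng*, and the SMAD4 peaks of receptor genes without a pSMAD1/5/9 peak.
*Bmpr2*, the 200 bases before the transcription start site (TSS), chr1:59802344-59802543: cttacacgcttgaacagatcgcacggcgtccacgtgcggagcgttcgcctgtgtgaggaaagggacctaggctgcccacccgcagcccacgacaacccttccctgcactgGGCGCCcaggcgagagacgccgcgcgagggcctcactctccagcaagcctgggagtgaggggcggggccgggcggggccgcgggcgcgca
*Bmpr2*, 30 bases at the pSMAD1/5/9 summit, chr1:59802548-59802577: cagtgcggctcagtGGCGCCgccgccgccg
*Acvr1*, intron 1, chr2:58455239-58455389: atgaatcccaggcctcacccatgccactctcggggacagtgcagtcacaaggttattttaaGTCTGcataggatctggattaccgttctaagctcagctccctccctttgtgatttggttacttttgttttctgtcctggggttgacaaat
*Acvrl1*, 30 bases at the 3′ end, chr15:101041523-101041552: ctgcctccGTCTGggctgctcaaagtggcc
*Acvrl1*, intron 9, chr15:101039082-101039232: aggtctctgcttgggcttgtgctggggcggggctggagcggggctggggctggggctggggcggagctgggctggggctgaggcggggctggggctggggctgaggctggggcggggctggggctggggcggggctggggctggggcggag
*Eng*, intron 12, chr2:32570001-32570151: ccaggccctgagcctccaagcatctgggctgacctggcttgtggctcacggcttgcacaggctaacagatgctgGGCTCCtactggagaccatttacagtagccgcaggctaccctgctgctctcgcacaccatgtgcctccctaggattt
*Bmpr1a*, before the TSS, chr14:34224805-34224955: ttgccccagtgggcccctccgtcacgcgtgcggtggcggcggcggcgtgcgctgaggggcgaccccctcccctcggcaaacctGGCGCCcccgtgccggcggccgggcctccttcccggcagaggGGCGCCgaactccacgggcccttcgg
*Bmpr1b*, intron 8, chr3:141563058-141563164: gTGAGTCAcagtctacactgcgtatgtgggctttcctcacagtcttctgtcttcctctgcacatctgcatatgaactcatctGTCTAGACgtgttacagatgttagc
*Acvr2b*, intron 1, chr9:119238278-119238428: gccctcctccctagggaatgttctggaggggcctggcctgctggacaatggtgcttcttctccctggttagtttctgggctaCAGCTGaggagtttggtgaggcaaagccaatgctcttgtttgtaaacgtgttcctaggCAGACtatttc
*Acvr1b*, downstream, chr15:101118766-101118916: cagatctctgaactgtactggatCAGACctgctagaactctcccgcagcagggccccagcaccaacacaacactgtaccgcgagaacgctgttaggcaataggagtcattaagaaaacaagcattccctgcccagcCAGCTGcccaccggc

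After BMP6, pSMAD1/5/9 peaks were listed at 4 of the 9 receptor genes, *Acvr1*, *Acvrl1*, *Bmpr2* and *Eng*, and at none of them in control cells. Of all protein-coding genes, 29.1% had a pSMAD1/5/9 peak after BMP6 and 5.97% in control cells, and 23.5% had one after BMP6 and none in control cells. SMAD4 peaks were listed at 8 receptor genes after BMP6, where the share of all genes was 39.3%, and at 6 in control cells, where it was 30.8%. *Acvr1* and *Acvr1b* had SMAD4 after BMP6 and none in control cells, a pattern shared by 12.8% of all genes. Both factors were listed after BMP6 at 4 receptor genes, against 25.4% of all genes. The authors combined the replicates into 1 list per condition, which gives replicate signals only for the peaks listed in it. A gene without a listed peak therefore has no replicate values there, and the difference between conditions was not tested here. Peaks not listed did not pass the irreproducible discovery rate (IDR) of 0.05 that the authors set, which does not show that the factor was absent.

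**Figure D1:**
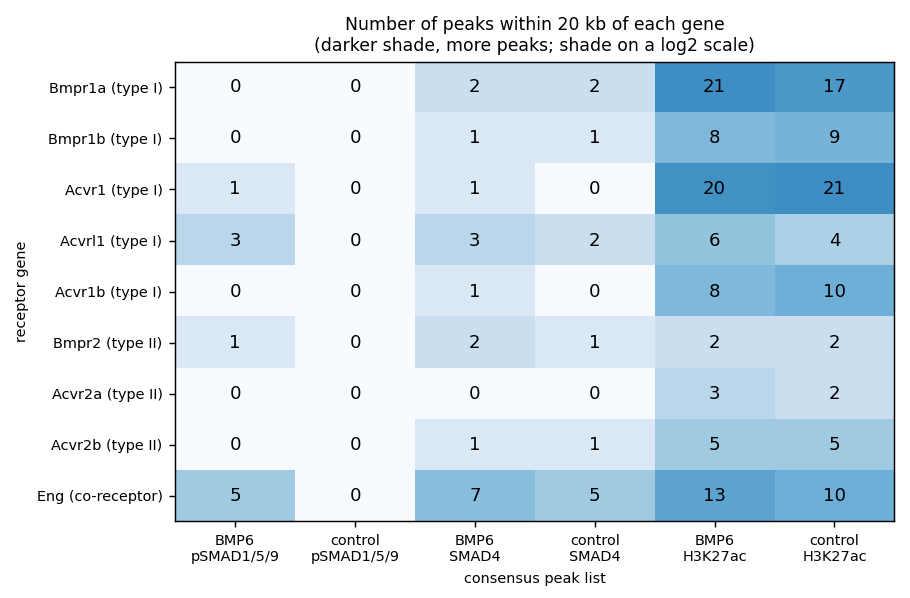
Number of consensus peaks within 20 kb of each receptor gene (rows) in each of the 6 lists (columns), printed in each field, with a darker shade for more peaks. *Eng* had the most SMAD peaks, 5 for pSMAD1/5/9 and 7 for SMAD4 after BMP6, and *Acvr2a* had 0 in all 4 SMAD lists.

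By role, pSMAD1/5/9 was listed after BMP6 at 2 of 5 type I receptor genes, at 1 of 3 type II receptor genes and at the co-receptor gene *Eng*. SMAD4 was listed after BMP6 at 5 of 5 type I and 2 of 3 type II receptor genes. Long genes have more room for peaks, and the receptor genes were long. *Acvrl1*, with a region of 55.1 kb, fell in decile 5 of all genes by region length, and the other 8 fell in deciles 8 to 10. In decile 5, 31.0% of all genes had a pSMAD1/5/9 peak after BMP6, and in deciles 8, 9 and 10 these shares were 31.5%, 35.4% and 34.9%. For SMAD4 after BMP6 the shares in the same deciles were 40.3%, 44.2%, 48.0% and 50.6%. Per 100 kb of region, the receptor genes had 0.811 pSMAD1/5/9 peaks after BMP6, and all genes had 0.44. For SMAD4 the values were 1.46 and 0.759 after BMP6, and 0.974 and 0.512 in control cells. These are descriptions of 1 list each, and *Eng* alone gave 5 of the 10 pSMAD1/5/9 peaks and 7 of the 18 SMAD4 peaks. Most of the *Eng* peaks lay in neighbouring genes. The higher densities after BMP6 therefore rest largely on the region of *Eng* and are not a trait of the receptor genes as a set.

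**Figure D2:**
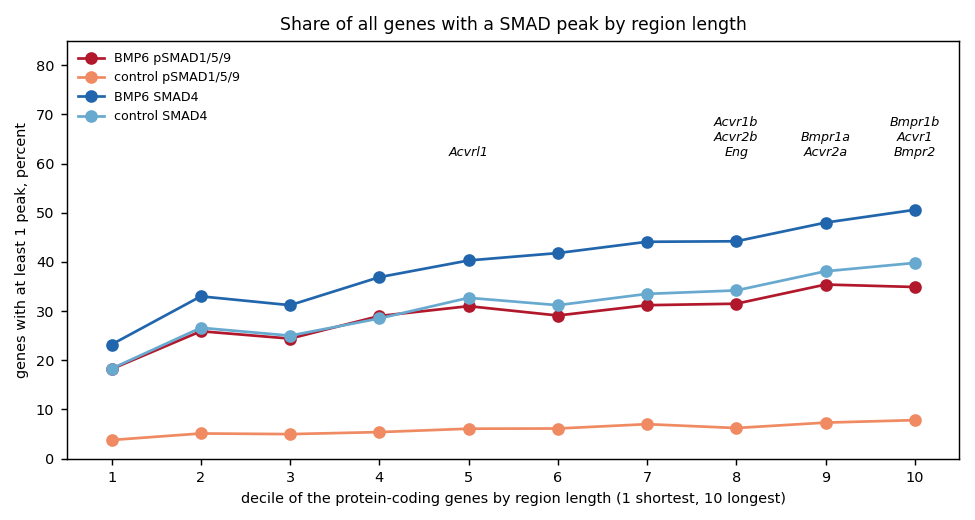
Share of all protein-coding genes with at least 1 SMAD peak within 20 kb (vertical axis, percent) in each decile of genes by region length (horizontal axis, 1 shortest), with the receptor genes named above their decile. After BMP6 the share with SMAD4 went from 23.2% in decile 1 to 50.6% in decile 10, and 8 of the 9 receptor genes stood in deciles 8 to 10.

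*Bmpr1a* (ENSMUSG00000021796.17) encodes ALK3, a type I receptor for BMPs, and its soluble form was the BMP trap of the experiment. It covers chr14:34132687-34224757 (minus strand) and has 13 exons. No pSMAD1/5/9 peak was listed at it in either condition. SMAD4 was listed at its promoter after BMP6 only, with the summit at −123 bp from the TSS, and ranked 6525 of 12860 by signal. The signals of both replicate columns were 5174 and 4259, which ranked 7360 and 4848, so the columns put this peak in the middle of the list. The printed stretch before the TSS holds GGCGCC 2 times, starting at positions −115 and −73 from the TSS. In intron 3 a weak SMAD4 peak was listed in both conditions, with its summit 58264 bp from the TSS after BMP6, and with rank 11141 after BMP6 and 6238 of 8577 in control cells. A control peak in intron 5 ranked 5109 and was the only SMAD4 peak of control cells at a receptor gene that overlapped none after BMP6.

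*Bmpr1b* (ENSMUSG00000052430.17), another BMP type I receptor, is the longest of the 9 genes and covers chr3:141542897-141875323 (minus strand). Again no pSMAD1/5/9 peak was listed. Its single SMAD4 peak lay in intron 8 in both conditions, at 312190 bp and 312189 bp from the TSS, close to the border with exon 8. It was weak, with rank 10178 of 12860 after BMP6 and 7744 of 8577 in control cells. This peak held GTCTAGAC, printed above, which was found in 1 of the 18 windows of 200 bp at the receptor genes and in 1.26% of all SMAD4 windows after BMP6. In control cells the palindrome was in 1.15% of all SMAD4 windows. The AP-1 match in the same stretch, starting 312160 bp from the TSS, begins at base 2 of the intron, so it overlaps the splice donor. The SMAD4 peak overlapped no H3K27ac peak after BMP6, the 1 exception among the 18, and overlapped 1 in control cells that ranked 63845 of 67790.

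*Acvr1* (ENSMUSG00000026836.17) encodes ALK2, a type I receptor for BMP6 and related ligands, and covers chr2:58336446-58457770 (minus strand). After BMP6 it had a pSMAD1/5/9 peak and a SMAD4 peak at the same place in intron 1, 2456 bp (pSMAD1/5/9 summit) and 2389 bp (SMAD4 summit) downstream of the TSS, and neither was listed in control cells. The pSMAD1/5/9 signals of the replicate columns were 11126 and 8624, with ranks 3521 and 3567 of 7339, the closest pair among the 10 peaks. The consensus rank was 3603, which was in the middle of the list. For SMAD4 the signals were 6521 and 2306, with ranks 5994 and 9067 of 12860, so the columns differed more. The nearest TSS of any basic transcript of *Acvr1* was 451 bp from the pSMAD1/5/9 summit, so the intron of the canonical transcript is close to a start site of another. The SMAD box in the printed stretch, read as GTCTG, starts 2442 bp from the TSS and was also in the SMAD4 window.

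*Acvrl1* (ENSMUSG00000000530.18) encodes ALK1, the type I receptor for BMP9 and BMP10, which is best known from endothelial cells. It covers chr15:101026459-101041521 (plus strand). It had 3 pSMAD1/5/9 and 3 SMAD4 peaks after BMP6, 2 SMAD4 peaks in control cells, and all of these were at its 3′ end and none at the TSS. At least 3 pSMAD1/5/9 peaks were found at 4.95% of all genes. The strongest lay 15079 bp from the TSS, just beyond the canonical 3′ end and inside longer transcripts of *Acvrl1*. Its replicate signals were 18703 and 17076, with ranks 1653 and 1131 of 7339, and the consensus rank was 1355.
SMAD4 was listed at the same place with rank 1289 of 12860 after BMP6 and 2463 of 8577 in control cells. The printed 30 bases hold the SMAD box as GTCTG.

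The peak of *Acvrl1* in intron 9 was less stable between the replicate columns. For pSMAD1/5/9 its signals were 5902 and 10739, with ranks 6409 and 2647, the widest pair among the 10 peaks. SMAD4 was listed there too, with rank 4782 after BMP6 and 3743 in control cells. The printed sequence of this site is a run of GGGCTG repeats, 13 in 151 bases counted on both strands, with a GC content of 80.1% and none of the motifs searched. Such repeats can take reads from similar places. By the methods, the authors kept only properly paired reads above a threshold of mapping quality. The part of the repeats in this peak was not tested. A peak of *Acvrl1* beyond its 3′ end, 17040 bp from the TSS, ranked 6207 for pSMAD1/5/9 and 11007 for SMAD4 after BMP6, and had no SMAD4 peak in control cells.

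*Acvr1b* (ENSMUSG00000000532.13) encodes ALK4, the type I receptor of activin. It lies next to *Acvrl1*, at chr15:101071921-101111565 (plus strand). Its region overlapped that of *Acvrl1*, but no peak was counted for both. Within 20 kb it had no pSMAD1/5/9 peak and a single SMAD4 peak, after BMP6 only, 46920 bp from its TSS and downstream of the gene. That peak ranked 5846 of 12860, with column ranks of 6690 and 4328. It lay 3183 bp from the TSS of *Tamalin*, so it stood nearer to this neighbour than to the start of *Acvr1b*. Its summit was also inside an exon of the long noncoding RNA gene *A330009N23Rik*, and the peak cannot be given to any of these genes.

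*Bmpr2* (ENSMUSG00000067336.8) encodes the BMP type II receptor, which passes on signals of BMPs to the type I receptors. It covers chr1:59802544-59918173 (plus strand). It was the only receptor gene with a pSMAD1/5/9 peak that covered its TSS, and 8.84% of all genes had one. The pSMAD1/5/9 summit lay 19 bp after the TSS, in the 5′ UTR, with replicate signals of 16082 and 16505 and ranks of 2099 and 1227 of 7339. The consensus rank was 1609, and no pSMAD1/5/9 peak was listed there in control cells. GGCGCC starts 18 bp after the TSS, under that summit, and once more at position −90 in the stretch printed above.

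At the same TSS, SMAD4 ranked higher in its list than pSMAD1/5/9 did. After BMP6 the SMAD4 peak at the *Bmpr2* TSS ranked 264 of 12860, with signals of 27270 and 25484 and column ranks of 478 and 136. In control cells it ranked 157 of 8577, with signals of 27720 and 19735 and column ranks of 199 and 140. So this was the strongest SMAD4 peak at any receptor gene in both conditions, in the top 2.05% and 1.83% of its list, and it was listed without BMP6 as well. Peaks over a TSS were listed at 13.1% of all genes for SMAD4 after BMP6 and at 8.8% in control cells, and among the receptor genes at 2 and 1 of 9. The peak was 1914 bp wide after BMP6 and 927 bp wide in control cells, and after BMP6 it reached the TSS of the neighbour ENSMUSG00000144256, which is 903 bp away. A weak second SMAD4 peak, in coding exon 1, was listed only after BMP6, with rank 10509.

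*Acvr2a* (ENSMUSG00000052155.7) encodes a type II receptor for activins and BMPs and covers chr2:48703743-48793283 (plus strand). It was the only receptor gene with no peak of either SMAD in any list, and none was listed with flanks of 50 kb. It did have H3K27ac over its TSS in both conditions. The same pattern, H3K27ac in both conditions and no SMAD, was found at 5874 of the 21757 genes.

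*Acvr2b* (ENSMUSG00000061393.16), the other activin type II receptor and a receptor of myostatin, covers chr9:119231103-119271213 (plus strand). It had no pSMAD1/5/9 peak within 20 kb, and 4 after BMP6 with flanks of 50 kb. SMAD4 was listed in intron 1, 7250 bp from the TSS, with rank 3473 of 12860 after BMP6, signals of 8644 and 7305 and column ranks of 4424 and 2338. In control cells a narrower peak was listed there, 7490 bp from the TSS, with rank 7561 of 8577, near the weak end of that list. The printed stretch holds an E-box, starting 7257 bp from the TSS, and a SMAD box, starting 7315 bp from it.

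*Eng* (ENSMUSG00000026814.18) encodes endoglin, a co-receptor that presents ligands to ALK1 and is, like *Acvrl1*, best known from endothelial cells. It covers chr2:32536540-32572670 (plus strand). It had the most SMAD peaks of the receptor genes: 5 for pSMAD1/5/9 after BMP6, a number reached or passed at 1.04% of all genes, and 0 in control cells. For SMAD4 it had 7 after BMP6 (1.12% of genes had as many) and 5 in control cells (1.53%). None lay over the *Eng* TSS, and most lay in its neighbours. Of the 5 pSMAD1/5/9 peaks, 3 were inside *Ak1*, upstream of *Eng*, 1 was over the TSS of *Fpgs*, downstream, and 1 was in an intron of *Eng* itself.

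The peak in intron 12 was the only place with SMAD peaks assigned to *Eng* that overlapped no other gene. For pSMAD1/5/9 its summit was 33536 bp from the TSS, its replicate signals were 20384 and 18771, and its column ranks were 1397 and 890 of 7339, with a consensus rank of 1134. SMAD4 was listed at the same place, with rank 791 of 12860 after BMP6 and 2005 of 8577 in control cells. The columns lay further apart in control cells, with ranks of 1426 and 3962, than after BMP6, with 624 and 1147. The printed stretch holds GGAGCC, read as GGCTCC, starting 33535 bp from the TSS.

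The peaks in *Ak1* had summits at −20033, −17057 and −14195 bp from the *Eng* TSS and ranks of 951, 3981 and 5425 for pSMAD1/5/9. The first of them was the strongest pSMAD1/5/9 peak assigned to any receptor gene, but its summit lay just outside the 20 kb and 1103 bp from the TSS of *Ak1*. The *Fpgs* peak ranked 1601, with its summit 78 bp from the *Fpgs* TSS. SMAD4 was listed at all 4 of these places after BMP6 and at 3 of them, 2 in *Ak1* and the 1 at *Fpgs*, in control cells. One more SMAD4 peak in *Ak1*, at −12592 bp and with rank 8296 after BMP6, overlapped no pSMAD1/5/9 peak. A further SMAD4 peak, in *Fpgs*, overlapped none either, with its summit 39519 bp from the *Eng* TSS after BMP6. That peak was listed in both conditions, with rank 7610 after BMP6 and 4751 in control cells. Because other genes lie there, these peaks were counted for *Eng* by position only, and which gene they act on was not tested.

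**Figure D3:**
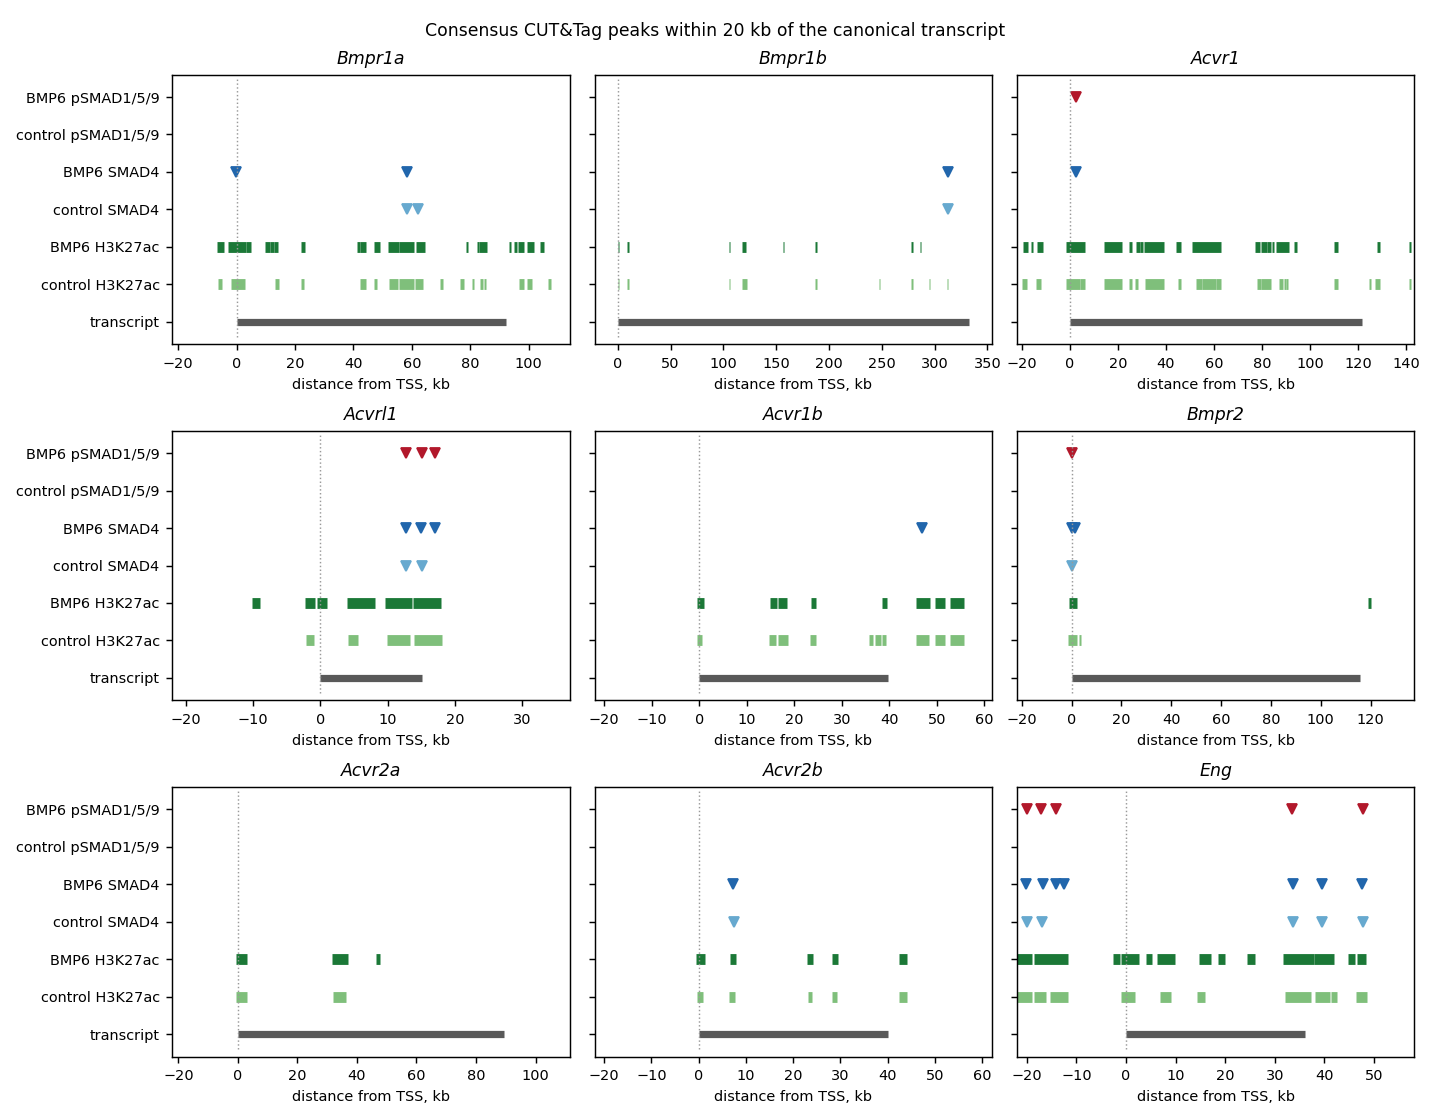
Positions of the peaks at each receptor gene, as distance from the TSS of the canonical transcript in kb, with triangles at the summits of SMAD peaks, bars over H3K27ac peaks and a grey bar for the transcript. No triangle stands in the control pSMAD1/5/9 row of any gene, and at *Acvrl1* and *Eng* the triangles after BMP6 stand away from the TSS.

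**Figure D4:**
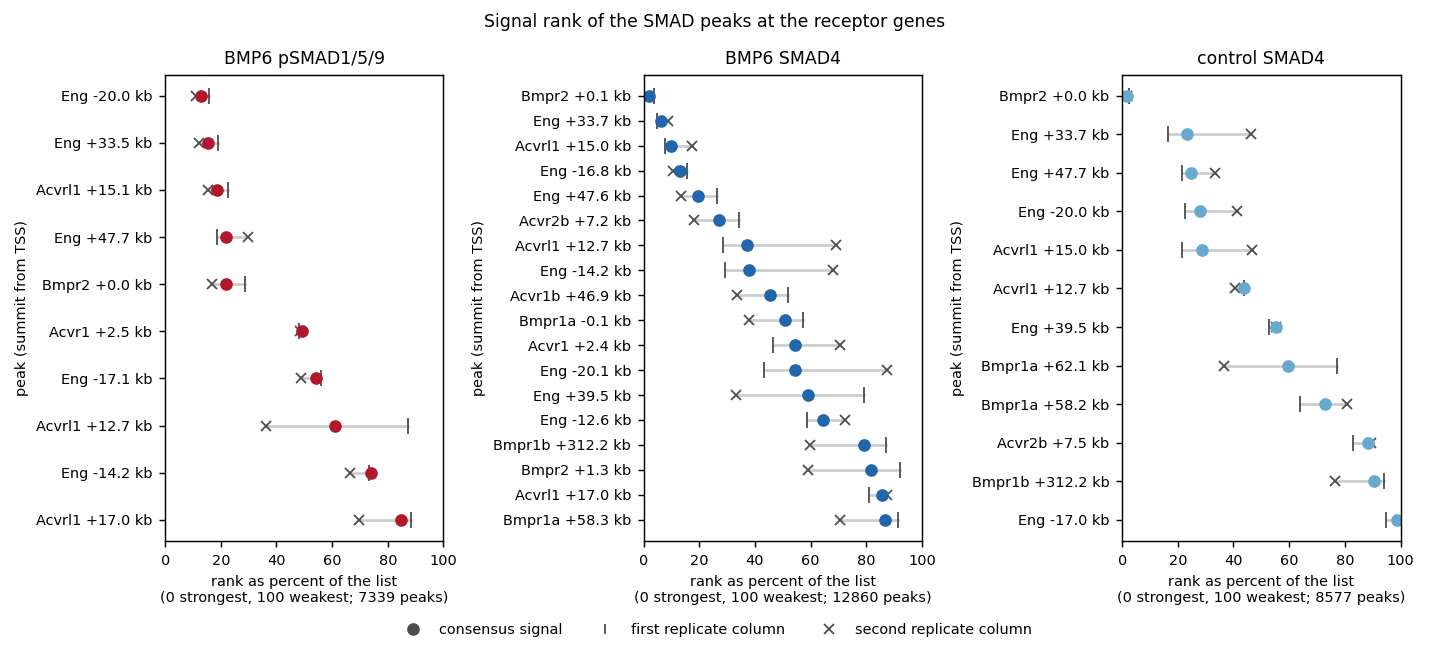
Rank of each SMAD peak at a receptor gene as a percent of its list (horizontal axis, 0 strongest), from the consensus signal (filled circle) and from each replicate column (bar and cross), with 1 row per peak named by gene and summit position in kb. *Bmpr2* at its TSS led both SMAD4 lists, and the columns lay apart by up to 51.2 percent of the list, at *Acvrl1* intron 9.

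Across the receptor genes, all 10 pSMAD1/5/9 peaks overlapped SMAD4 after BMP6 by at least 1 bp (Wilson 95% interval 72.2% to 100.0%), against 73.2% of all peaks of that list. Of the 10, 7 also overlapped control SMAD4 (70.0%, 39.7% to 89.2%), against 57.2% of the list. So most of these 10 peaks stood where SMAD4 was listed without BMP6, as did most peaks of the whole list. The exceptions were the peaks of *Acvr1*, of *Eng* at −14195 bp and of *Acvrl1* beyond its 3′ end. At the *Eng* peak at −17057 bp the control SMAD4 peak was weak, with rank 8456 of 8577. None of the 10 overlapped a control pSMAD1/5/9 peak (up to 27.8%), against 11.4% of the list. The intervals take in the counting of peaks only, not replicate error.

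Of the 18 SMAD4 peaks after BMP6, 10 overlapped pSMAD1/5/9 (55.6%, 33.7% to 75.4%; 42.7% of the list) and 11 overlapped control SMAD4 (61.1%, 38.6% to 79.7%; 45.5% of the list). In the other direction, 11 of the 12 control SMAD4 peaks overlapped a SMAD4 peak after BMP6 (91.7%, 64.6% to 98.5%; 69.7% of the list). Each of these 6 list shares lay inside the interval of the receptor genes. The peaks were few and not independent, with 5 of the 10 pSMAD1/5/9 and 7 of the 18 SMAD4 peaks at *Eng*. The intervals are therefore a description and not a test against the list. In position, 6 of the 18 SMAD4 summits after BMP6 and 3 of the 10 pSMAD1/5/9 summits were intronic. Another gene was overlapped by 7 and 4 peaks, all assigned to *Eng* apart from the SMAD4 peak at the *Bmpr2* TSS. The same shares of the whole lists were not counted here, so these counts describe the receptor genes only.

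H3K27ac was listed at all 9 receptor genes in both conditions, against 74.8% of all genes after BMP6 and 73.4% in control cells. Over the TSS it was listed at 9 of 9 after BMP6 (51.4% of all genes) and at 8 of 9 in control cells (49.5%), where the exception was *Acvrl1*. The nearest control peak of *Acvrl1* had its summit at −1645 bp and did not reach the TSS. After BMP6 the strongest TSS peak was that of *Bmpr1a*, with rank 1467 of 78050 (column ranks 1200 and 2043), and *Bmpr2* followed with rank 1712. In control cells the order was reversed, with rank 2285 of 67790 for *Bmpr2* and 2809 for *Bmpr1a* (column ranks 2931 and 2997). The weakest was *Acvrl1*, with rank 44585 after BMP6 and column ranks of 34238 and 55489. At *Eng* the TSS peak ranked 16199 after BMP6 and 31011 in control cells, with column ranks of 14921 and 16861, and of 35722 and 26792. At *Bmpr1b* the ranks were 28706 and 38496, and the control columns lay far apart, at 28516 and 56267.

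The extent of H3K27ac differed widely among the receptor genes. After BMP6 its peaks covered 48.9% of the region of *Eng*, 40.2% of *Acvr1*, 33.4% of *Bmpr1a* and 16.5 of the 55.1 kb of *Acvrl1*, where the median of all genes was 7.07%. They covered 18.7% of *Acvr1b*, 9.0% of *Acvr2b*, 8.11% of *Acvr2a*, 3.48% of *Bmpr1b* and 3.01% of *Bmpr2*. *Bmpr2*, with the strongest SMAD4 peak, had 2 H3K27ac peaks after BMP6, and the stronger was 3570 bp wide and lay over the TSS. *Acvr1* had 20 peaks after BMP6 (2.73% of all genes had as many) and *Bmpr1a* 21 (2.45%). In control cells the covered shares were lower at 7 of the 9 genes, with 33.7% at *Eng* and 18.5% at *Acvrl1*, and the median of all genes was also lower, 5.68%. *Bmpr1b* and *Acvr1b* were the exceptions, with 3.71% and 20.8% in control cells. Widths of the H3K27ac peaks at these genes came in coarser steps in the control list than in the list after BMP6. What these steps did to coverage, peak number or the reach to a TSS was not tested. The lower shares therefore do not show less acetylation in control cells.

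**Figure D5:**
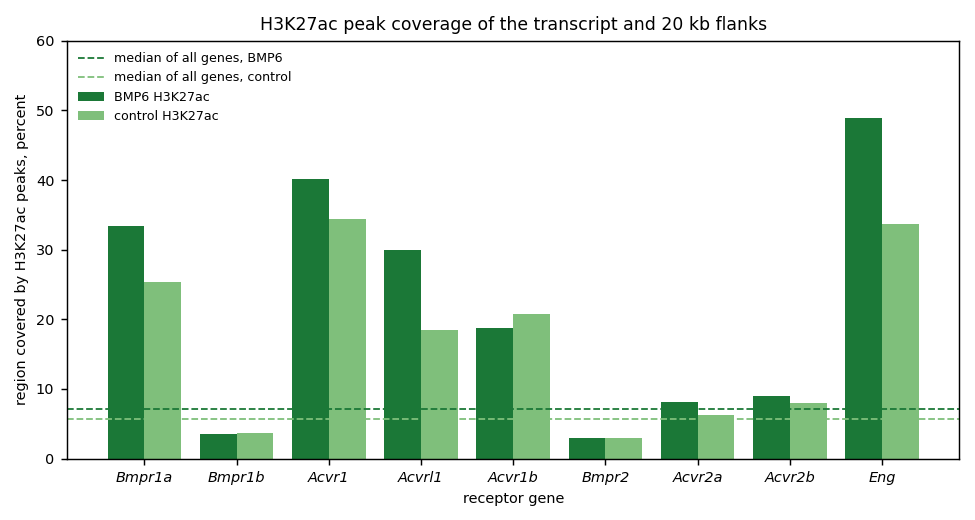
Share of each receptor gene's region covered by H3K27ac peaks (bars from 0, percent) after BMP6 and in control cells, with dashed lines at the median of all protein-coding genes in each list. *Bmpr1b* and *Bmpr2* stood below the median in both conditions, and the other 7 genes above it, *Acvr2a* and *Acvr2b* by the least. Peak widths came in coarser steps in the control list.

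Of the H3K27ac peaks at the receptor genes, 62 of 86 after BMP6 overlapped a control peak (72.1%, 61.8% to 80.5%; 72.0% of the list), and 69 of 80 control peaks overlapped one after BMP6 (86.2%, 77.0% to 92.1%; 86.8% of the list). The 24 and 11 peaks without a partner were weak, and the best of them ranked 42863 of 78050 and 46679 of 67790. At *Eng*, 5 of the 13 peaks after BMP6 had no control partner, and at *Bmpr1a* 9 of 21. All 10 pSMAD1/5/9 peaks lay on H3K27ac in both conditions, where 98.2% and 97.5% of the whole list did. Of the SMAD4 peaks, 17 of 18 after BMP6 and 12 of 12 in control cells lay on H3K27ac of their own condition, against 95.7% and 96.4% of the lists.

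Since *Eng* and *Acvrl1* are best known from endothelial cells, the markers of other cell types were looked up by H3K27ac over the TSS. All 7 MuSC markers (*Pax7*, *Myf5*, *Myod1*, *Cdh15*, *Itga7*, *Vcam1* and *Des*) had it in both conditions. Of 7 endothelial markers, 1 (*Tek*) had it, and *Cdh5*, *Pecam1*, *Tie1*, *Kdr*, *Emcn* and *Esam* did not. It was found at 0 of 5 leukocyte markers, at 1 of 5 fibro-adipogenic markers (*Dpt*) and at 1 of 4 mural markers (*Abcc9*), the same genes in both conditions. The lists hold no read counts, so these values say only which peaks passed.

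In the windows of 200 bp around the summits, the SMAD box CAGAC was in 7 of the 10 pSMAD1/5/9 windows at receptor genes, where 48.6% of all windows of the list held it. GGAGCC was in 3 (25.2% of all), GGCGCC in 1 (7.75%), CAGCTG in 4 (31.1%), TGACTCA in 1 (15.5%) and GTCTAGAC in 0 (0.518%). In the SMAD4 windows after BMP6, CAGAC was in 11 of 18 (53.4% of all), CAGCTG in 9 (29.1%), GGAGCC in 4 (23.6%), GGCGCC in 3 (7.53%) and TGACTCA in 2 (15.1%). In control SMAD4 windows CAGAC was in 9 of 12 (51.5%) and CAGCTG in 6 (32.7%). Windows of different lists overlap, and a match describes the sequence and not a bound site. The median GC content was 61.8% at the pSMAD1/5/9 windows of receptor genes, from 47.5% to 80.0%, and 56.0% over the list.

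The nearest relatives of these receptors are the TGF-β receptors and other co-receptors of the family. Of 9 such genes, pSMAD1/5/9 was listed after BMP6 at 3 (*Tgfbr2*, *Amhr2* and *Bambi*), the pseudoreceptor *Bambi* with its summit 11 bp from the TSS and rank 5615. SMAD4 was listed at 7 after BMP6 and at 5 in control cells, and pSMAD1/5/9 at 0 in control cells, so these counts stood next to 4, 8, 6 and 0 of 9 for the BMP and activin receptors. *Acvr1c* had no peak in any list. In the rest of the pathway, pSMAD1/5/9 was listed after BMP6 at 5 of 20 ligand genes and 3 of 10 antagonist genes. It was listed at 6 of 8 SMAD genes and 4 of 4 *Id* genes. Of all protein-coding genes, 29.1% had such a peak. The strongest pSMAD1/5/9 peak of a gene ranked from 15 (*Smad7*, an inhibitory SMAD) to 6965 (*Smad4*) among the SMAD genes and from 152 (*Id3*) to 6843 (*Id4*) among the *Id* genes. Among the receptor genes it ranked from 951 (*Eng*) to 3603 (*Acvr1*), within both of these ranges.

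By presence or absence in the 6 lists, *Acvrl1*, *Bmpr2* and *Eng* had the same pattern, with pSMAD1/5/9 after BMP6 only and SMAD4 and H3K27ac in both conditions, as did 15.4% of all genes. In the pathway lists, *Gdf11*, *Inha*, *Smad2*, *Smad6*, *Smad7*, *Chrd*, *Fstl3*, *Id1* and *Bambi* shared it. The pattern of *Acvr1*, with both SMADs after BMP6 only, was found at 4.5% of genes, among them *Tgfb2*, *Smad4*, *Smad9*, *Fst*, *Id4*, *Tgfbr2* and *Amhr2*. *Bmpr1a*, *Bmpr1b* and *Acvr2b*, with SMAD4 in both conditions and no pSMAD1/5/9, were like 5.6% of genes, including *Tgfbr1*, *Tgfbr3*, *Rgma*, *Rgmb*, *Bmp6* and *Bmp8a*. *Acvr1b*, with SMAD4 after BMP6 only, was like 7.75% of genes, including *Bmp4*, *Bmp8b*, *Nog* and *Bmper*.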

How the data were processed

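MuSC libraries were grouped by antibody and treatment as labelled. According to the methods, the authors brought the libraries of an antibody to the same read number, used Bowtie2 2.5.4 for alignment to GRCm39 and SAMtools 1.21 for filtering, called peaks per replicate with JAMM and kept peaks with an IDR of at most 0.05 over both replicates. The deposited signal is a score of the authors' peak caller with no fixed range, and it equals the sum of both replicate columns. The authors' lists also give the IDR as −log10 of the value. The replicate columns carry no replicate number, signals were compared only as ranks within a list, and no read number per peak was used, so how deeply each peak was covered is unknown here.

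Genes were taken from the canonical GENCODE vM39 transcripts, while the methods name RefSeq Select isoforms, not used here. A peak was over a TSS if it covered that base. Positions are 1-based. Tables were made with Python 3.11.15, numpy 2.4.6, pandas 2.3.3, scipy 1.17.1 and pysam 0.24.0, the genome was indexed with samtools 1.23.1 and figures were drawn with matplotlib 3.10.9. Overlap and motif counts were tested on simulated data. All 9 members were named and their SMAD peaks described, though not every SMAD4 rank was given. The members, the gene and marker lists and the alternatives were chosen with earlier results of these data known. Libraries without primary antibody and the RNA data were not used here.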

Additional observations from a re-analysis of the deposited data

How the results depend on the processing

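Alternatives covered the IDR threshold, the region around a gene, the overlap required, merged peaks, the ranking and the motif window. Of 36 recounts of receptor genes with a peak, 32 stayed within 1.5 times the reported count, and of 42 recounts of peaks 31 did. Those unchanged include control pSMAD1/5/9, with 0 genes and 0 peaks under every setting. They also include both H3K27ac lists, with all 9 genes under every setting. Such counts had little or no room to move. With the proximal region only (1.5 kb before to 0.5 kb after the TSS), pSMAD1/5/9 after BMP6 was left at 1 gene with 1 peak, SMAD4 after BMP6 at 2 genes with 2 peaks and control SMAD4 at 1 gene with 1 peak, while H3K27ac peaks numbered 11 and 9. Inside the transcripts alone, 5 pSMAD1/5/9 and 10 SMAD4 peaks were left after BMP6, at 4 and 7 genes. With flanks of 50 kb there were 18 and 30, at 6 and 8 genes. *Acvr1b* and *Acvr2b* then had 4 pSMAD1/5/9 peaks each, and those of *Acvr1b* included peaks also counted for *Acvrl1*. At an IDR of at most 0.01, 8 SMAD4 peaks were left after BMP6 and 6 in control cells, the latter at 3 genes (*Acvrl1*, *Bmpr2* and *Eng*).

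At that threshold, 5 of the 7 pSMAD1/5/9 peaks left after BMP6 overlapped SMAD4. SMAD4 shared 4 peaks between the conditions. All of the 8 and 6 SMAD4 peaks left lay on H3K27ac, after BMP6 and in control cells. When the overlap had to cover 50% of both peaks, 0 pSMAD1/5/9 and 0 control SMAD4 peaks and 2 SMAD4 peaks after BMP6 were shared with H3K27ac, whose peaks are wider. The rank of the strongest peak moved by no more than the standard deviation of its column ranks in 81 of 108 recounts. Many recounts used those same columns, and columns far apart pass more easily, so this count cannot show that ranks were stable. *Acvr1* for pSMAD1/5/9, with close column ranks of 3521 and 3567, counted as moved, and for SMAD4, with 5994 and 9067, as unmoved. Of the motif recounts, 19 of 36 stayed within 1.5 times. No paired analysis was possible because the lists hold 1 consensus per condition and their replicate columns carry no number.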
